A study of Anopheles arabiensis with 20 samples.

Results

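Among the gene models of the malaria mosquito Anopheles arabiensis, 81 had at least 10 sequencing counts in each of the Sekoru laboratory strain pools SEK1, SEK3 and SEK4 and at most 2 counts in the remaining pool of that strain, SEK2. They were taken from 13867 gene identifiers, of which 13830 carry the prefix AARA, so the members make up 0.586% of the AARA identifiers. The choice rests on the SEK counts themselves, so the SEK levels below are a description, and no comparison with SEK is read as a test of the members. Libraries outside SEK played no part in the rule, but the high values of TOL1 were already known from earlier results of these data.

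The 20 libraries come from 5 groups of 4 pools, each pool holding 10 whole adult females aged 3 to 5 days that had not taken blood. The field populations are Ethiopian: ASN comes from Asendabo, CHW from Chewaka and TOL from Tolay. Their larvae were collected in the field and raised to adults, and the labels describe all 3 as resistant to deltamethrin and DDT. SEK (Sekoru, an Ethiopian colony) and MOZ (a colony from Mozambique) are laboratory strains described as susceptible. Polyadenylated RNA was sequenced as stranded paired reads of 125 bases, with ASN, TOL, CHW1 and CHW2 in one sequencing run, by the run names in the sample titles, and CHW3, CHW4, SEK and MOZ in another. All 4 SEK pools therefore shared a run, as did all 4 TOL pools. The labels name no insecticide exposure of the sequenced mosquitoes, and the resistance is an earlier finding on the populations, not on these pools.

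Anopheles arabiensis is a member of the Anopheles gambiae species complex and a vector of malaria in Africa. Pyrethroids and DDT act on the voltage-gated sodium channel of the insect nerve, and resistance is known to arise through changes in that channel, in detoxifying enzymes and in the cuticle. A pool of whole mosquitoes mixes the RNA of every animal and every tissue in it, including gut, ovary, fat body, salivary gland and muscle. A higher count of a gene in such a pool may mean more animals, more cells or more RNA per cell, and these cannot be told apart. None of the 81 members matched an entry of the RefSeq gene table of assembly AaraD3, nor did any of the 13830 AARA identifiers, while 37 of 37 mitochondrial genes did. The members are therefore given by identifier with no function, and the labelled sex and tissue could not be checked against marker genes.

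Library totals ran from 12205530 counts in MOZ2 to 21516390 in ASN3. Within SEK they were 18427721, 15428810, 14942998 and 16275413 for pools 1 to 4, so SEK2 was sequenced to a depth between those of SEK3 and SEK4. SEK2 had 10248 AARA identifiers with at least 10 counts, against 10492 to 10756 in the other 3 SEK pools. TOL1 had 20123670 counts and 10565 such identifiers, against 10355 to 10406 in TOL2, TOL3 and TOL4. Levels below are CPM, the count relative to the library's total after scaling by the trimmed mean of M-values (TMM), unless raw counts are named. The labels call the pools biological replicates, and all spreads and p-values refer to the spread between pools.

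The members together stood high in 4 libraries and near 0 in the rest. Their summed raw counts were 46689 in SEK1, 7349 in SEK3, 3049 in SEK4 and 4769 in TOL1. SEK2 held 45 counts over all members. The other TOL pools held 142, 133 and 133, the ASN pools 90, 66, 175 and 594, the CHW pools 123, 101, 84 and 149, and the MOZ pools 90, 95, 100 and 104. TOL1 thus lay above every library outside SEK, and no other library of the study came close to it except the 3 SEK pools that the rule selected.

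As a share of all counts, the members took 0.253% of SEK1 (95% Wilson interval 0.251% to 0.256%), 0.0492% of SEK3 and 0.0187% of SEK4. In SEK2 the share was 0.000292% (0.000218% to 0.00039%). TOL1 gave 0.0237% (0.0230% to 0.0244%), and the 15 libraries outside SEK and TOL1 ranged from 0.000357% to 0.00324%. The highest of those 15 was ASN4, and most of its sum came from AARA016504, which is described separately below. Without AARA016504 the 15 libraries ranged from 0.000233% to 0.000737%, a range that includes the SEK2 value of 0.000279%. The rule itself set SEK2 low and the other 3 SEK pools high. These intervals cover counting error only.

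Counting genes instead of reads gave the same picture. In TOL1, 77 of the 81 members had at least 10 counts. In each of the 15 other libraries outside SEK, between 0 and 2 members did. In TOL1 1 member was at 0 counts, in SEK2 50 were, and in those 15 libraries between 44 and 61 were. In SEK2, 17 members had 1 count and 14 had 2. Over the 15 libraries together, 11 members had no count at all, 22 had 1 to 3, 17 had 4 to 9 and 31 had at least 10, with a median of 7.

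**Figure D1:**
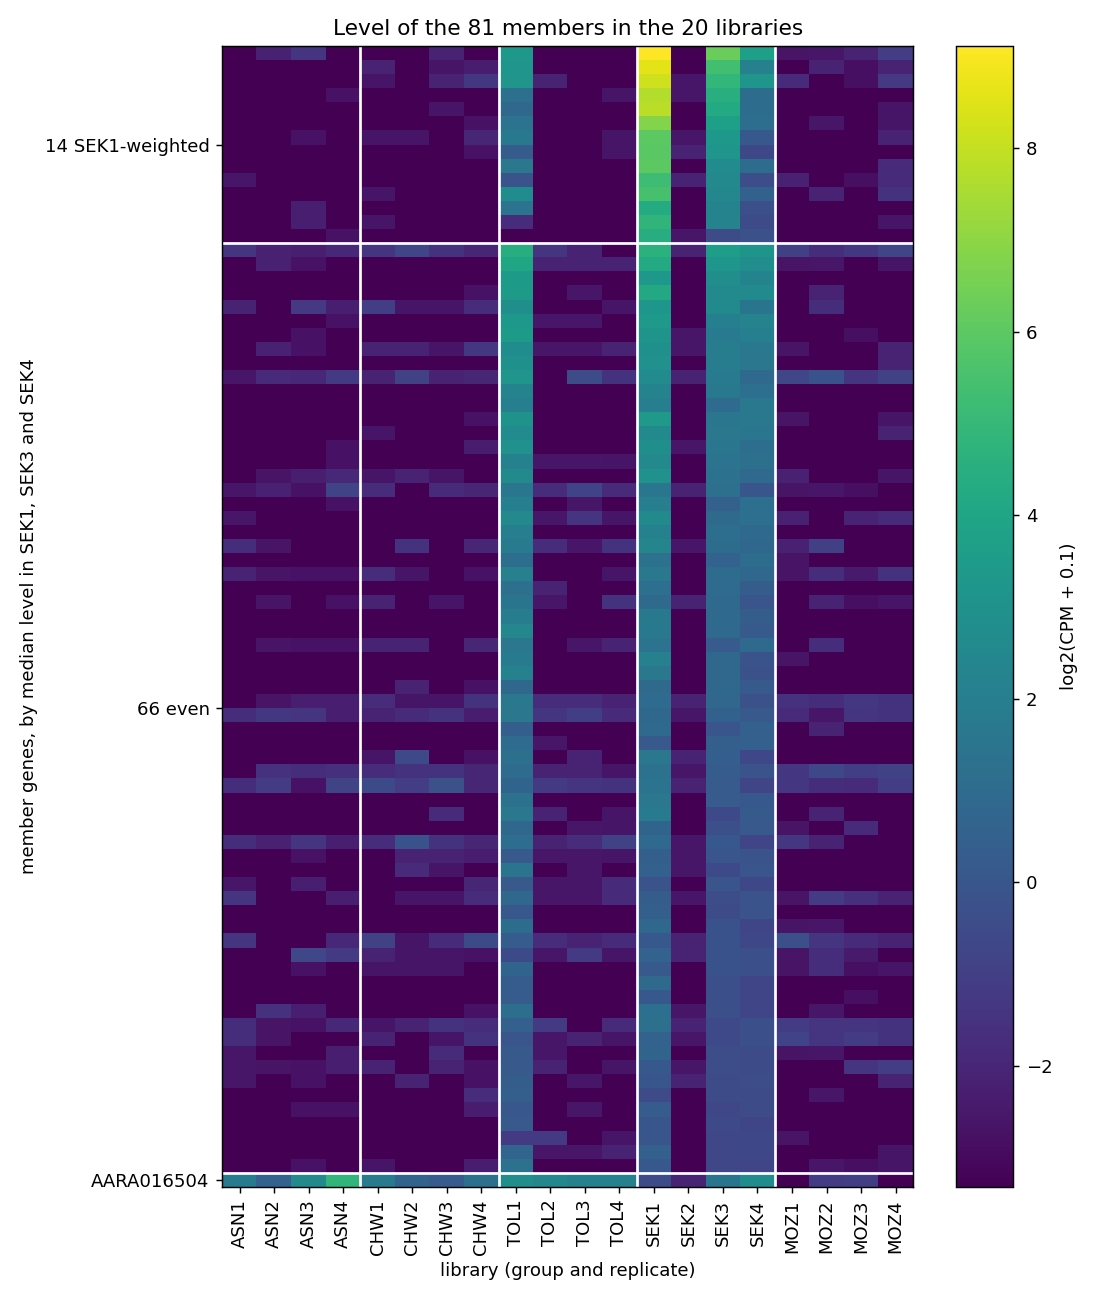
Heat map of log2(CPM + 0.1) for the 81 members, one line per member, in the 20 libraries grouped by population. The columns of SEK1, SEK3, SEK4 and TOL1 are filled for nearly all members, with 77 members at 10 or more counts in TOL1, while SEK2 and the other 15 libraries are near the lower end of the scale.

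The members fell into 2 sets by how they were distributed over the SEK pools, a division made after their values were seen and given without a test. For 14 members the CPM in SEK1 was at least 27.6 times that in SEK4, the lowest of them being AARA016183. For 66 members the ratio was at most 5.30, the highest being AARA007805. No member lay between these values. The remaining member, AARA016504, was lower in SEK1 than in SEK4, with a ratio of 0.0942. The sets are called SEK1-weighted and even below.

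The SEK1-weighted set carried most of the members' counts in SEK1. It comprises AARA000240, AARA000241, AARA000242, AARA000244, AARA000246, AARA000247, AARA007721, AARA014033, AARA014036, AARA014037, AARA014038, AARA014043, AARA016181 and AARA016183. Its summed level was 2115 CPM in SEK1, 248.9 in SEK3, 39.7 in SEK4, 0.530 in SEK2 and 51.2 in TOL1. The 15 other libraries lay between 0 and 1.76 CPM. SEK1 was thus highest and SEK3 second, and the distance from SEK1 to SEK4 is what defined the set. It supplied 88.7% of the members' counts in SEK1, 65.0% in SEK3, 25.6% in SEK4 and 16.2% in TOL1.

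AARA000242 was the most abundant member in SEK1, SEK3 and SEK4. Its counts were 10847 in SEK1, 0 in SEK2, 1481 in SEK3 and 255 in SEK4. In TOL1 it had 147 counts, and in TOL2, TOL3 and TOL4 it had 0. The ASN pools had 0, 2, 5 and 0, the CHW pools 0, 0, 2 and 0, and the MOZ pools 1, 1, 3 and 6. This 1 gene supplied 23.2% of the members' counts in SEK1 and 20.2% in SEK3.

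AARA014036 had 7543, 0, 793 and 81 counts in SEK1 to SEK4, 134 in TOL1 and at most 2 in any of the 15 other libraries. AARA014037 had 5784, 1, 576 and 174 counts in the same SEK order and 132 in TOL1. AARA000241 and AARA000246 were lower in SEK4 and TOL1 relative to SEK1. The former had 4381, 0, 373 and 40 counts in SEK and 26 in TOL1, and the latter 3993, 1, 434 and 39 in SEK and 35 in TOL1. AARA014043 followed with 2223, 0, 244 and 43 counts in SEK and 39 in TOL1, and AARA014033 with 1233, 1, 187 and 19 in SEK and 47 in TOL1. In each of these genes SEK1 was highest and SEK3 second, and SEK4 and TOL1 were both far below SEK3.

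A pair of SEK1-weighted genes was near absent from TOL1. AARA016183 had 412, 1, 12 and 15 counts in SEK1 to SEK4 and was the only member at 0 in TOL1. AARA016181 had 550, 0, 89 and 12 counts in SEK and 3 in TOL1. Outside SEK, the AARA016183 counts came to 1 in all, in ASN4.

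By CPM the even set was at a similar height in SEK1 and TOL1. Its summed level was 269.1 CPM in SEK1, 131.1 in SEK3, 108.7 in SEK4 and 257.6 in TOL1. SEK2 was at 2.32 CPM, and the 15 other libraries lay between 2.46 and 5.85. The median ratio of TOL1 to SEK1 over the 66 genes was 0.996, with quartiles of 0.788 and 1.21. SEK1 was the higher of the pair in 34 of the 66 genes. TOL1 was above SEK4 in 63 of the 66, and SEK3 was above SEK4 in 44. For these genes SEK1 stood closer to TOL1, a pool of another population, than to SEK3 or SEK4 in summed CPM. As a share of all counts, without TMM scaling, the even set took 0.0286% of SEK1, 0.0168% of SEK3, 0.0131% of SEK4 and 0.0193% of TOL1. By that share TOL1 lay nearer to SEK3 than to SEK1, so the similar height of SEK1 and TOL1 depends on the scaling.

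AARA006912 was the most abundant even member in TOL1. Its counts were 481, 2, 234 and 166 in SEK1 to SEK4 and 323, 4, 2 and 0 in TOL1 to TOL4. The ASN pools had 4, 2, 2 and 3, the CHW pools 4, 8, 4 and 3, and the MOZ pools 7, 3, 7 and 8. The TOL1 level was 21.4 CPM, and the lowest of the 4 high libraries was far above the highest of the 16 low ones.

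AARA005223 had 383, 0, 174 and 132 counts in SEK1 to SEK4 and 247, 2, 2 and 2 in TOL1 to TOL4. AARA014996 had 355, 0, 113 and 118 in SEK and 163 in TOL1, and AARA001216 had 166, 1, 65 and 79 in SEK and 162 in TOL1. AARA006451 had 201, 0, 78 and 92 in SEK and 149 in TOL1. In raw counts each of these 4 genes was higher in TOL1 than in SEK3 and SEK4, though TOL1 also had the largest total count of these libraries. The 4 genes were also higher in TOL1 in CPM. Over the 4 genes the CPM ratio of TOL1 to SEK3 ran from 1.805 to 3.17, and that of TOL1 to SEK4 from 1.8 to 2.673. The TMM factors in these levels were 0.7503 in TOL1, 1.285 in SEK3 and 1.209 in SEK4. They enlarge the ratios over a scaling by library totals alone, so the size of the difference depends on the scaling.

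AARA009983 was one of the 11 members with no count in the 15 libraries outside SEK and TOL1. It had 190, 0, 135 and 95 counts in SEK1 to SEK4, 163 in TOL1 and 0 in all of the 15 other libraries. Set against a floor of 3 counts over those 15 libraries, its TOL1 level was at least 903-fold higher.

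**Figure D2:**
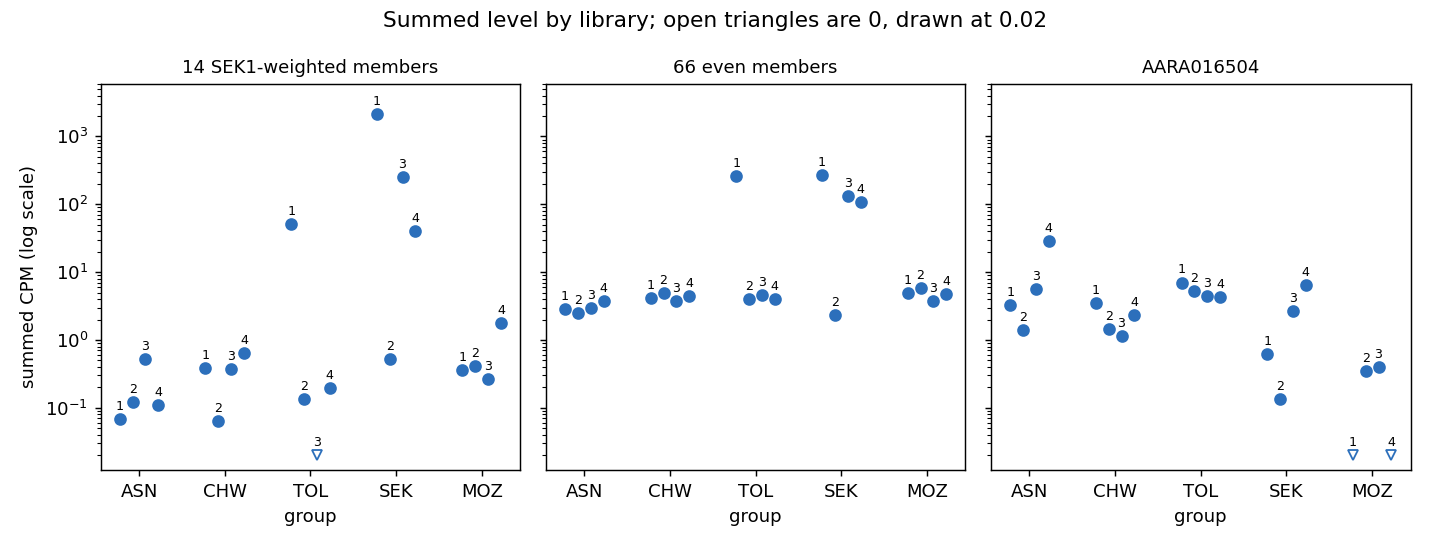
Summed CPM on a log axis in each of the 20 libraries for the 14 SEK1-weighted members, the 66 even members and AARA016504; open triangles stand for a sum of 0. The even set reaches 269.1 in SEK1 and 257.6 in TOL1, whereas the SEK1-weighted set falls from 2115 in SEK1 to 51.2 in TOL1 and 39.7 in SEK4.

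The order of the genes by level was shared between the high libraries within each set. Over the 66 even genes, log2 CPM in SEK1 and TOL1 had a Pearson correlation of 0.918 and a Spearman correlation of 0.906. For SEK4 and TOL1 Pearson's value was 0.863. Over all 81 members SEK1 and TOL1 gave only 0.356, and SEK4 and TOL1 gave 0.786. The all-member value joins genes at about equal CPM with genes at far lower CPM in TOL1. Within the 14 SEK1-weighted genes the correlation was 0.926 for SEK1 and SEK3 and 0.688 for SEK1 and TOL1. These are correlations across genes of single libraries, which share genes' lengths and sequence composition, and genes are not independent replicates.

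**Figure D3:**
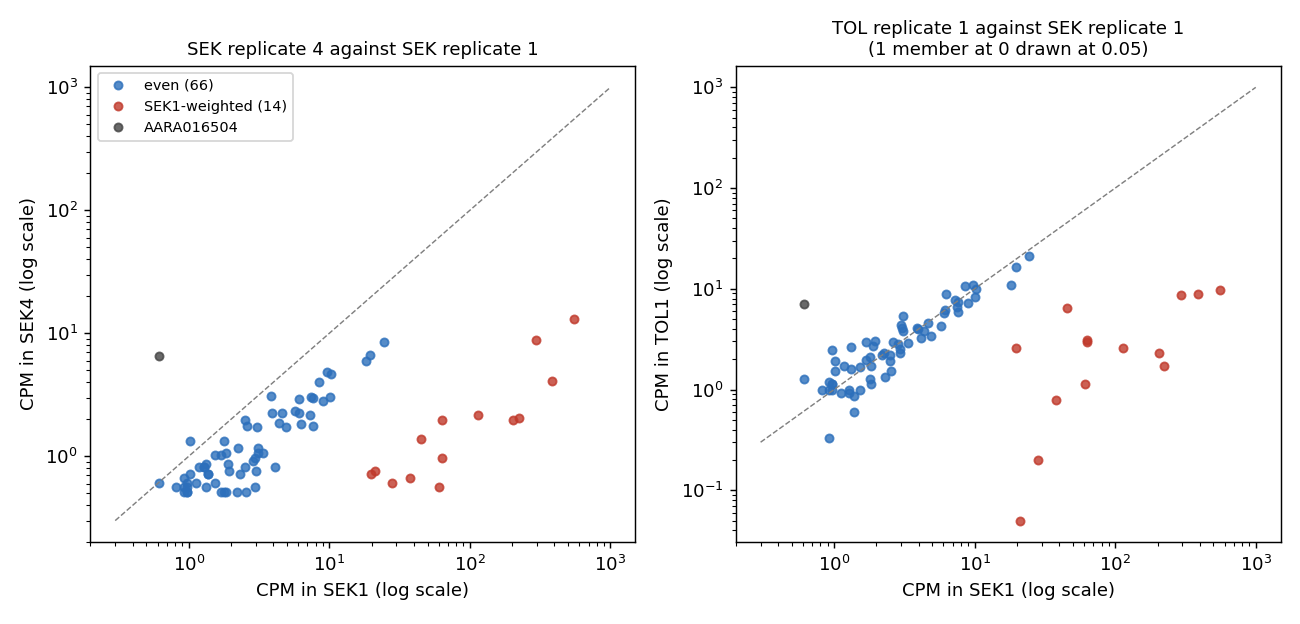
CPM of each member on log axes, SEK4 against SEK1 on one side and TOL1 against SEK1 on the other, with a dashed line of equality. Against TOL1 the 66 even members scatter around the line, at a median TOL1 to SEK1 ratio of 0.996, while against SEK4 most lie below it, at a median SEK1 to SEK4 ratio of 2.19. The 14 SEK1-weighted members lie far below the line in both, at a median TOL1 to SEK1 ratio of 0.0219.

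Over the 16 libraries outside SEK, the median correlation between pairs of members (Pearson, log2 CPM with a prior count of 2) was 0.858, and 62.4% of pairs exceeded 0.8. The same median over 12335 other genes was -0.00152. Without TOL1 the members' median was -0.0264, over the 70 members that still varied. The rank-based Spearman median over the 16 libraries was 0.387. Outside SEK, the high median correlation of the members thus rested on 1 library, TOL1.

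TOL1 was next described by the mirror image of the rule, at least 10 counts in TOL1 and at most 2 in each of TOL2, TOL3 and TOL4. That gave 114 identifiers, 0.824% of the AARA identifiers. Of these, 62 were members, which is 54.4% of the TOL1 list and 76.5% of the members. The remaining 52 of the TOL1 list included 45 with fewer than 10 counts in at least 1 of SEK1, SEK3 and SEK4 and 10 with more than 2 counts in SEK2, 3 of them both. None of the 52 was at 0 in all of SEK1, SEK3 and SEK4.

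The 19 members outside the TOL1 list divide into 2 kinds. In 15 of them another TOL pool had more than 2 counts. AARA004944 was one, at 134 counts in TOL1 and 0, 9 and 4 in TOL2 to TOL4. The other 4 had fewer than 10 counts in TOL1, namely AARA006837 with 5, AARA008499 with 9, AARA016181 with 3 and AARA016183 with 0.

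The same thresholds were then applied to every library against the other 3 of its group. Low in 1 library and present in the other 3, SEK2 had 81 genes, and the other 19 libraries had 0 to 9. High in 1 library and low in the other 3, TOL1 had 114 genes, and the others had 0 to 7. Neither pattern therefore recurred at that size in another library. By CPM, 78 of the 81 members were higher in TOL1 than in each of the 15 other libraries, against 9.32% of all AARA identifiers.

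Tests of the members were made among ASN, CHW, TOL and MOZ, since the rule used SEK. The edgeR quasi-likelihood test was fitted to 12414 genes in 16 libraries. A gene was called at a Benjamini-Hochberg adjusted p under 0.05 and a fold of at least 2. Of the 81 members 79 had the required 10 counts over the 16 libraries, and without TOL1 only 31 would have had them. Counts over these 79 members are therefore set by TOL1 in part and support nothing further. The median biological coefficient of variation of the members was 1.53, against 0.172 over all genes tested.

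In TOL against ASN no member was called (edgeR), while 1.14% of all genes tested were, 0.242% as higher and 0.902% as lower in TOL. An unadjusted p under 0.05 was reached by 65 of the 79 members and by 2238 of all 12414 genes, the smallest adjusted p of edgeR being 0.0563, and DESeq2 called 0 as well, with the adjusted p missing for 78. Leaving out TOL2, TOL3 or TOL4 raised the count to 5, 4 or 11. In TOL against CHW, edgeR called 4 members, all higher in TOL. Of all genes tested 3.09% were called, 2.42% as higher and 0.669% as lower. They were AARA000242, AARA001216, AARA005205 and AARA005223, and 3 of the 4 had no count in CHW. Against a floor of 3 counts over the 4 CHW pools, AARA005223 was at least 93.2-fold higher in TOL, AARA001216 at least 59.7-fold and AARA005205 at least 33.9-fold. TOL1 held 247 of the 253 TOL counts of AARA005223, all 162 of AARA001216 and 86 of the 92 of AARA005205. These folds therefore describe TOL1. With 2 counts in the 15 libraries outside SEK and TOL1, AARA001216 was tested only through TOL1, so its call supports nothing further. AARA000242 had 147 counts in TOL, all in TOL1, against 2 in CHW, a ratio of 81.2 with a counting interval of 22.1 to 677.

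The call in TOL against CHW rested on single libraries. It fell to 0 without TOL1, CHW1 or CHW2, to 1 without ASN1, and to 2 without ASN2, ASN3, CHW3, CHW4 or any 1 MOZ pool. Without TOL2, TOL3 and TOL4 in turn it rose to 8, 8 and 21. With the sequencing run as a covariate, and within the first run alone, no member was called. The fitted log2 fold changes stayed about as large, for AARA001216 at 8.48 and 8.43 against 8.48, and for AARA005223 at 9.12 and 9.07 against 9.12. Both genes are at 0 in CHW, so these fitted values depend on the fit and are no bounds.

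In TOL against MOZ, edgeR called 31 of the 79 members, all higher in TOL. Of all genes tested 13.8% were called, 7.41% as higher and 6.4% as lower. AARA006912 was higher by a log2 fold change of 3.90 (SE 1.25, adjusted p of edgeR 0.0210), and its TOL mean came from TOL1. TOL2 to TOL4 together were lower than MOZ in AARA006912, with 6 counts against 25. Their ratio was 0.369, with a counting interval of 0.124 to 0.9225. AARA006076 was at 2.24 (SE 0.753, adjusted p of edgeR 0.0262), with 45 of its 58 TOL counts in TOL1. TOL2 to TOL4 together had 13 counts of AARA006076 against 14 in MOZ, a ratio of 1.43 with a counting interval of 0.619 to 3.28. Without TOL1 only 31 members were tested in TOL against MOZ, and 3 of them were called, beside 1621 of all 12297 genes. Of these 3, 2 had also been called with TOL1 included. Without MOZ1, MOZ2, MOZ3 and MOZ4 in turn the count was 13, 15, 11 and 14, and without TOL4 it was 47. With run as a covariate it was 0, and TOL and MOZ share no run.

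The 3 members called in TOL against MOZ without TOL1 did not all have the same direction. AARA016504 stayed higher in TOL. AARA008671 was higher in the 3 remaining TOL pools than in MOZ, with 3, 7 and 3 counts against 1, 1, 1 and 0, a pooled ratio of 6.67 with a counting interval of 1.83 to 36.5. AARA005081 was lower there, with 2, 2 and 1 counts against 5, 8, 9 and 7, a log2 fold change of -1.86 (SE 0.613, adjusted p of edgeR 0.0284). With TOL1 included, at 29 counts, AARA005081 was not called.

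The separation of the groups without reference to a model gave the same limits. Members whose 4 TOL pools all lay above all 4 pools of the other group numbered 5 against ASN, 5 against CHW and 7 against MOZ. The background over all AARA identifiers was 3.98%, 6.88% and 15.2%. Since TOL2, TOL3 and TOL4 were near the other groups in nearly all members, a TOL mean for these genes describes TOL1.

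Few members were called among ASN, CHW and MOZ. In ASN against CHW edgeR called none, 1 of 79 had an unadjusted p under 0.05 (2996 of all 12414 genes), and DESeq2 called 0, against 3.15% of all genes called by edgeR, 2.43% as higher and 0.717% as lower. With both groups pooled, 51 of the 81 members were at or under the floor of 3 counts in ASN and in CHW alike. In ASN against MOZ and in CHW against MOZ edgeR called 1 member each, AARA016504. Of all genes tested 15.4% were called in ASN against MOZ, 7.97% as higher and 7.42% as lower. In CHW against MOZ 10.2% were called, 4.33% as higher and 5.89% as lower. The counts moved with single libraries. In ASN against CHW 1 member was called without ASN1 or ASN2, and in ASN against MOZ 2 were called without ASN1 and 3 without TOL1. In CHW against MOZ the count was 3 without TOL1 and 0 without CHW1, MOZ1 or MOZ4. Without TOL1 only 31 members were tested. Of all 12297 genes then tested, 1942 were called in ASN against MOZ and 1297 in CHW against MOZ.

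AARA016504 followed another pattern than the rest. The 4 ASN pools had 48, 23, 108 and 524 counts, those of CHW 54, 23, 18 and 46, and those of TOL 106, 80, 65 and 67. SEK had 12, 2, 52 and 128 counts, and MOZ had 0, 5, 9 and 0. It was thus present in all field pools, TOL1 was not apart from the other TOL pools, and ASN4 stood high in ASN. The mean level was 9.73 ± 12.7 CPM in ASN, TOL was at 5.25 ± 1.27, SEK at 2.49 ± 2.9, CHW at 2.10 ± 1.06 and MOZ at 0.186 ± 0.215 (SD, n = 4 each). The ASN mean rests on ASN4 at 28.6 CPM, the other ASN pools being at 3.31, 1.38 and 5.66. The fitted log2 difference of TOL from ASN was -0.91 and turned to 0.58 without ASN4.

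By edgeR, AARA016504 was higher than in MOZ by a log2 fold change of 5.59 in ASN (SE 0.953, adjusted p 0.000216), 4.68 in TOL (SE 0.980, adjusted p 0.00133) and 3.37 in CHW (SE 1.05, adjusted p 0.0232). All 12 field pools had more counts than any MOZ pool. With sequencing run as a covariate the adjusted p of edgeR was 0.0401 in ASN, 0.0896 in TOL and 0.1003 in CHW, so the calls of TOL and CHW were lost, while the log2 fold changes were 4.16 (SE 1.55) in TOL and 3.09 (SE 1.24) in CHW. Within the second run CHW against MOZ gave an adjusted p of 0.0576. Without ASN4 the ASN difference was 4.10, and without MOZ1 the CHW adjusted p was 0.0576.

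Other members with counts outside the 4 high libraries were low. AARA001759 had 1 to 12 counts in each of the 15 libraries, 80 in all, against 50, 2, 21 and 10 in SEK and 23 in TOL1. AARA004944 had 0 to 11 counts there, against 123, 2, 68 and 36 in SEK and 134 in TOL1. For AARA001759 the TOL1 count was less than 2 times the CHW3 count (1.52 against 0.754 in CPM), so this gene sits near the edge of the pattern. AARA004166 lay nearer still, with 17 counts in TOL1 and 12 each in CHW4 and MOZ1. So did AARA008499, with 9 in TOL1 and 10 in ASN3.

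Runs of consecutive identifier numbers were examined, although these numbers are not coordinates and no table used here places them on the genome. For 6 of the 81 members, or 7.41%, the next number was also a member, against 0.586% of all AARA identifiers that are members. The runs were AARA000240 to AARA000242, AARA014036 to AARA014038, AARA000246 to AARA000247 and AARA009983 to AARA009984. Within 10 numbers of another member lay 15 members, or 18.5%. That window spans many numbers, so the 0.586% is no yardstick for it, and no share over all identifiers was computed for it. Another gene of the same set lay within 10 numbers for 13 of the 14 SEK1-weighted members and for 2 of the 66 even members. Neighbouring identifiers may be near-identical copies of a gene, in which case their counts cannot be divided with certainty.

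The runs were longer when identifiers between the members were included, by a limit chosen after the values were seen. With at least 30 counts in SEK1 and at most 2 in SEK2, 96 identifiers qualified, or 0.694% of the AARA identifiers, 61 of them members. Of the 96, 36 or 37.5% lay in 8 runs of consecutive numbers. No share in runs over all identifiers was computed. The longest was AARA000238 to AARA000249, with 12 identifiers of which 6 are members. Its counts ran from 63 to 10847 in SEK1, 2 to 1481 in SEK3, 3 to 255 in SEK4 and 0 to 147 in TOL1, with at most 2 in SEK2. All 12 together had 33 counts in the 15 other libraries.

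The genes inside that run that missed the rule had fewer than 10 counts in SEK4. AARA000239 had 951, 0, 142 and 8 counts in SEK1 to SEK4 and 25 in TOL1. AARA000238 had 748, 0, 49 and 5 in SEK and 0 in TOL1, and AARA000243 had 432, 0, 75 and 5 in SEK and 9 in TOL1. The identifiers at either end did not share the pattern. AARA000237 had 189, 91, 106 and 123 counts in SEK1 to SEK4, and AARA000250 had 10, 4, 5 and 2.

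AARA014036 to AARA014044 formed the second longest run, with 9 identifiers of which 4 are members. SEK1 counts ran from 34 to 7543 and TOL1 counts from 0 to 134, and the 15 other libraries held 42 counts over all 9. Just before it, AARA014033 is a member and AARA014035 had 3, 0, 5 and 1 counts in SEK1 to SEK4. AARA014045, just after it, had 83, 66, 74 and 119. AARA016180 to AARA016183 held 4 identifiers with 2 members, and AARA007720 to AARA007722 held 3 with 1 member. AARA016184, just after the first of these, had 293, 193, 140 and 148 counts in SEK1 to SEK4, while AARA016186 again had 230, 0, 16 and 1.

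**Figure D4:**
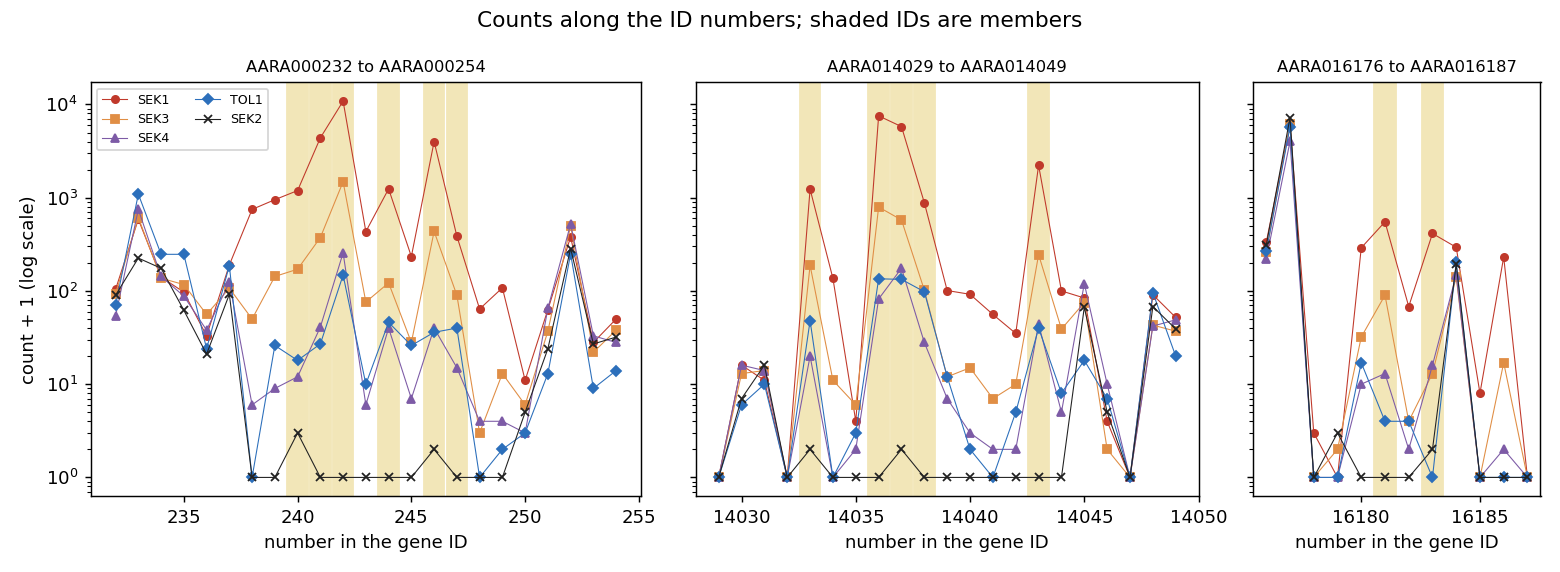
Raw count + 1 on a log axis against identifier number in 3 blocks of neighbouring identifiers, for SEK1, SEK2, SEK3, SEK4 and TOL1, with members shaded. In AARA000238 to AARA000249 SEK1 rises to 10847 counts while SEK2 has at most 2, and the flanking AARA000237 is at 91 to 189 counts in all 4 SEK pools.

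The limits of the rule cut through a graded set of genes. Just inside were AARA001759, with 50, 2, 21 and 10 counts, and AARA000240, with 1191, 2, 170 and 11. Just outside were AARA001182, with 20, 1, 11 and 9 counts and 18 in TOL1, and AARA000222, with 12, 3, 14 and 39 counts and 0 in TOL1. A lowest count of exactly 10 was found in 11 members. Another 9 identifiers missed the rule with a lowest count of 9, and 6 of those had at least 10 counts in TOL1. A further 10 missed it with 3 counts in SEK2.

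Genes with more than 2 counts in SEK2 could not enter the list at all, whether or not their level was higher in the other libraries. Chosen after their values were seen, 10 such identifiers had CPM levels in SEK1, SEK3 and SEK4 each at least 5-fold above SEK2. In 7 of the 10, TOL1 was also at least 5-fold above each of TOL2, TOL3 and TOL4. AARA005530 had 1987, 35, 795 and 850 counts in SEK1 to SEK4 and 2393, 15, 39 and 26 in TOL1 to TOL4. AARA006986 had 517, 9, 300 and 229 in SEK and 531, 5, 4 and 12 in TOL, and AARA010047 had 268, 9, 110 and 113 in SEK and 172, 0, 0 and 0 in TOL. Each ASN, CHW and MOZ pool had 0 to 2 counts of AARA010047, so its SEK2 count of 9 lay above all of them. Within SEK, AARA008636 resembled the SEK1-weighted genes, with 1444, 3, 211 and 26 counts, and it had 28, 12, 11 and 9 in TOL. Unlike them it was present in every library, with 4 to 49 counts in each ASN, CHW and MOZ pool, the highest in ASN4.

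Because the rule asked for counts in 3 of the 4 SEK pools, members had to be frequent in gene lists against SEK, and their number there is given only as a description of those lists. An edgeR fit of all 20 libraries kept 11018 genes, 77 of them members. Among the genes called higher in SEK, members made up 66 of 303 against ASN, 38 of 179 against CHW, 64 of 693 against MOZ and 10 of 236 against TOL. As shares of those lists these are 21.8%, 21.2%, 9.24% and 4.24%. Genes called higher in SEK were 2.75%, 1.62%, 6.29% and 2.14% of all genes tested in the same order. The rule used these libraries, so the counts state only how much of each list is made of genes that SEK2 lacked.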

How the data were processed

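Members and lists were chosen with earlier results of these data known. The authors deposited raw counts per gene and library. The submitters' processing notes name FastQC 0.11.4, HISAT2, Cufflinks, SAMtools 1.5 and HTSeq 0.9.0; the genome build, the annotation and the strand setting were not given in the sources used here. All 20 count columns matched a sample by title, and 0 were left unmapped. Pools were grouped by the labels.

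CPM used library totals over all genes and TMM factors from the genes that passed filterByExpr by group over all libraries, SEK included. The tests used TMM factors of their own, from the 16 libraries. Tests used edgeR 4.0.16 (glmQLFit, glmQLFTest) in R 4.3.3 on 16 libraries without SEK, keeping genes with at least 10 counts in all and adjusting over 12414 genes (Benjamini-Hochberg). The steps were tested on simulated data. DESeq2 1.42.0, other scalings, filters, libraries left out, a replicate block and sequencing run were alternatives. Shares carry 95% Wilson intervals, and a count of 0 was set to a floor of 3 counts for folds. Intervals and floors cover counting error only.

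The rules for naming genes took the 10 members highest in SEK1, SEK3 and SEK4 by median and the 10 highest in TOL1. They also took the 5 highest in ASN, CHW and MOZ, the 3 longest identifier runs and up to 10 called members by adjusted p. Last came up to 3 at 0 in TOL1 and 2 on either side of the thresholds. Some genes under these rules are not described above, among them AARA011982 and AARA003667. Other genes were chosen after their values were seen. No sequence is printed, because no table used here pairs AARA identifiers with sequences.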

Additional observations from a re-analysis of the deposited data

Results flagged for a closer look

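A library was set apart where its gap to the nearest library of its group of 4, divided by the group's range, exceeded Dixon's critical value for 4 samples, which chance gives in about 1 of 20 groups. By the summed share of counts, TOL1 stood apart in TOL at 0.0237%, and at 0.0232% without AARA016504. ASN4 stood apart in ASN at 0.00324%, of which AARA016504 made up 524 of 594 counts.

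By the number of members with at least 10 counts, TOL1 stood apart with 77 and SEK2 with 0, the latter by the rule itself. ASN3 with 2 and CHW1 with 1 stood apart by a difference of 1 gene from the rest of their groups.

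Gene by gene, 116 groups of 4 pools outside SEK with at least 10 counts were examined, 79 of them in TOL. TOL1 stood apart in 75 members, CHW2 in 3, ASN4 in 2 and ASN1 in 1. TOL groups with 10 counts mostly in TOL1 had to show TOL1 apart, so its tally is not set against the chance rate.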

How the results depend on the processing

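Relaxing or tightening the rule changed the number of members: 38 with at least 20 counts in SEK1, SEK3 and SEK4, 50 with 0 in SEK2, 156 with at least 5 counts, and 82 to 123 with 1 SEK pool left out of the rule (123 without SEK4). The share with the next number also a member was 4.0% with 0 in SEK2. The median pairwise correlation was 0.387 by Spearman, 0.72 with a prior count of 0.5, and turned to -0.0264 without TOL1.

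Members called by edgeR in TOL against ASN were 5 with library totals alone, and 0 to 11 with 1 library left out. In TOL against CHW they were 18 with library totals alone, 0 with filterByExpr (which tested 1 member), 0 with run as a covariate, 0 within one run, and 0 to 21 with 1 library left out. In TOL against MOZ they were 8 by DESeq2, 1 with filterByExpr (which tested 1 member), 0 with run as a covariate, and 3 to 47 with 1 library left out. The counts were 1 with filterByExpr in ASN against CHW (0 to 1 with 1 library left out), 2 with library totals alone in ASN against MOZ (1 to 3), and 0 with run as a covariate or within one run in CHW against MOZ (0 to 3). Among the members, filterByExpr tested AARA016504 alone in each comparison. Within one run CHW against MOZ tested 18 members, with CHW3 and CHW4 as the CHW pools. With library totals alone, all genes tested shifted in their median log2 fold change by -0.09 in TOL against ASN, -0.29 in TOL against CHW and -0.47 in TOL against MOZ. No value within one run exists for TOL against MOZ or ASN against MOZ. The causes were not tested.

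In their deviations from group means, same-numbered pools correlated at -0.135 to 0.199 over 24 pairs, with 3 above 0.1. Pools of different numbers were not compared, so this cannot settle whether same-numbered pools share more than a number. With the replicate block the members called were 2 in TOL against ASN, 9 in TOL against CHW, 29 in TOL against MOZ and 2 in ASN against MOZ.

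The mean share of counts in CHW was 0.000698%, 0.000879% without mitochondrial genes and 0.00048% without AARA016504, an alternative chosen after seeing the data; in MOZ it was 0.000662% and 0.000792% without mitochondrial genes. With 1 library left out it ranged from 0.000563% to 0.00152% in ASN, 0.000654% to 0.000766% in CHW, 0.000775% to 0.00843% in TOL, 0.0227% to 0.107% in SEK and 0.000624% to 0.000721% in MOZ. Of the alternatives for named genes, 282 kept direction and call, 55 lost the call and 1 reversed. The reversal was AARA014954 in TOL against MOZ, at -0.80 without TOL1 and up to 7.96 with another library left out. Alternatives in which a gene was not tested are not in this tally. Without TOL1, AARA001216, AARA004481 and AARA014996 lacked the counts to be tested.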

Other observations

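A few identifiers that miss the rule resemble the SEK1-weighted genes. AARA005056 and AARA005057, neither of them a member, had 269 to 535 counts in SEK1, 45 to 69 in SEK3, 4 to 5 in SEK4, at most 1 in SEK2 and 0 to 5 in TOL1. AARA016186 had 230, 0, 16 and 1 counts in SEK1 to SEK4 and 0 in TOL1. These genes were chosen after their values were seen, and they were near absent from TOL1, whereas 77 of the 81 members had at least 10 counts there.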
